A study of Mus musculus with 18 samples.

Results

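The proteasome genes were measured in mouse hearts before pressure overload, under it, and under it with an Akt1 transgene switched on in heart muscle cells. They were taken as every probe set (a group of short array probes for 1 transcript) annotated with a single gene symbol of the form Psma, Psmb, Psmc, Psmd, Psme, Psmf or Psmg plus a number, with the immunoproteasome genes Psmb8, Psmb9 and Psmb10 left out. The choice used gene names and no measured value, though earlier results of these data were known when it was made. It gave 99 of the 45265 probe sets on the chip pair, 80 on chip 430A and 19 on chip 430B, for 44 genes. Of these, 75 probe sets passed the filter on low signal, and 42 of the 44 genes were tested among 12835 genes. Psma8, an alpha subunit known from the testis, and Psmb11, a beta subunit known from the thymus, did not pass the filter, and a probe set that Psme2 shares with another symbol was not used.

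All hearts came from male mice that carry Tet-myrAkt1, a tetracycline-controlled gene for a constantly active Akt1, together with αMHC-tTA, an activator whose αMHC promoter works in heart muscle cells. Before AAC, the aortic constriction that imposes pressure overload, 3 hearts were taken at 8 weeks of age. Another 3 hearts were taken 4 weeks after AAC, labelled 12 weeks of age. The last 3 were taken 6 weeks after AAC with Akt on, again labelled 12 weeks of age, and the labels give 3 weeks of Akt in 1 place and 2 weeks in another. These groups are called the hearts before AAC, the 4-week hearts and the Akt-on hearts. No group of hearts without AAC at the later age and no hearts 6 weeks after AAC without Akt are among the samples, so AAC cannot be told apart from age, nor Akt from 2 further weeks of overload. The labels do not say whether hearts were pooled or came from separate litters, so p-values measure the spread between these 3 samples a group. For 1 of the 4-week hearts, replicate 3 by its title, the descriptive text gives the replicate as 1.

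The proteasome is the barrel-shaped protease that breaks down proteins marked with ubiquitin. Its core particle stacks rings of alpha subunits, which gate the entry, on rings of beta subunits, of which Psmb5, Psmb6 and Psmb7 cut the chain. The regulatory particle caps the barrel: its ATPases unfold the substrate and push it in, and its non-ATPase subunits hold the structure, bind ubiquitin and remove it. Heart muscle relies on it to turn over contractile proteins. The transcription factor Nfe2l1 raises proteasome genes together when proteasome activity is short, through antioxidant response elements in their promoters.

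Stretches of promoter that hold the core letters of that element, TGACNNNGC on either strand, are shown because they are what some members share in sequence and others lack. Such a core was in 16.7% of the members with a promoter, against 14.0% of all genes with one. The stretches come from RefSeq promoters on GRCm38.p6, run 5′ to 3′ along the gene, and have the match in capitals.
Psmb5, chr14:54618014-54618062, minus strand: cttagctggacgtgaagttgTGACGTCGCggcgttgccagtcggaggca
Psmb6, chr11:70525328-70525376, plus strand: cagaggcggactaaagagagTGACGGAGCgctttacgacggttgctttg
Psmd9, chr5:123228139-123228187, plus strand: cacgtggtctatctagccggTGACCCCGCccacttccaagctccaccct
Psme4, chr11:30771748-30771796, plus strand: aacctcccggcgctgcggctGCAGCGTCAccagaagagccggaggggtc
Psmc6, chr14:45329577-45329625, plus strand: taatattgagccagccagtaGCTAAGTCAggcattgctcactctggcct
Psmd12, chr11:107479278-107479309, plus strand: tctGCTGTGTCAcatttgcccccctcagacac
The match begins 47 bases before the transcript start in Psmb5, 9 bases before it in Psmb6, 31 in Psmd9 and 7 in Psme4. In Psmc6 and Psmd12 it lies further out, 227 and 247 bases before the start.

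Signals are the authors' MAS5 intensities after scaling to equal trimmed means, and differences are on the log2(signal + 32) scale, with the standard error from limma. A gene is called where its Benjamini-Hochberg adjusted p over all genes is under 0.05. The switch was visible in 1 of 3 Akt1 probe sets, with signals of 708, 383 and 496 in hearts before AAC, 571, 821 and 917 in 4-week hearts and 2614, 3762 and 6535 in Akt-on hearts. All 8 heart muscle markers passed the filter, while summed atrial marker signal varied from 5759 to 92539 within the hearts before AAC, from 6212 to 70089 in 4-week hearts and from 6410 to 69035 in Akt-on hearts. The ratio of 3′ to 5′ β-actin signal, a sign of RNA quality, was 1.49, 1.95 and 2.04 in hearts before AAC, 1.21, 1.14 and 1.21 in 4-week hearts and 1.22, 1.09 and 1.04 in Akt-on hearts. It therefore moves with both comparisons against hearts before AAC, and its part in them was not tested. The 8 heart muscle markers summed to 156029 to 182791 in Akt-on hearts, against 159263 to 170960 in 4-week hearts and 199006 to 221588 in hearts before AAC, with 4 called between Akt-on hearts and hearts before AAC. The 8 fibroblast markers summed to 40865 to 64361 in Akt-on hearts, against 26404 to 42043 in 4-week hearts and 34888 to 39912 in hearts before AAC. Of these markers, 4 were called between Akt-on and 4-week hearts and 3 between Akt-on hearts and hearts before AAC. The 6 smooth muscle markers summed to 9676 to 12192 in Akt-on hearts, against 12422 to 14532 in 4-week hearts and 16343 to 18097 in hearts before AAC. Of these 6, 1 was called between Akt-on and 4-week hearts and 2 between Akt-on hearts and hearts before AAC. The part of these shifts in the proteasome differences was not tested. In RNA from heart tissue, fewer cells of a type and less RNA per cell cannot be told apart.

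The widest change was between Akt-on hearts and hearts before AAC, where 14 of the 42 genes were higher and 1 was lower. Psmc4 stood about 1 log2 unit higher, and Psmd14, Psme4, Psmd7 and Psma2 between 0.67 and 0.79 higher. Over all genes, 7.09% were called higher and 7.6% lower in this comparison. The regulatory particle gave 8 of these calls among its 17 genes and the core particle 4 among its 14, all higher. The median difference was 0.28 over the regulatory particle genes and 0.16 over the core particle genes, against -0.00 over all genes. Proteasome genes were also measured with less spread than most, with a median standard error of 0.14 against 0.19 over all genes, and the part of this in the count was not tested.

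**Figure D1:**
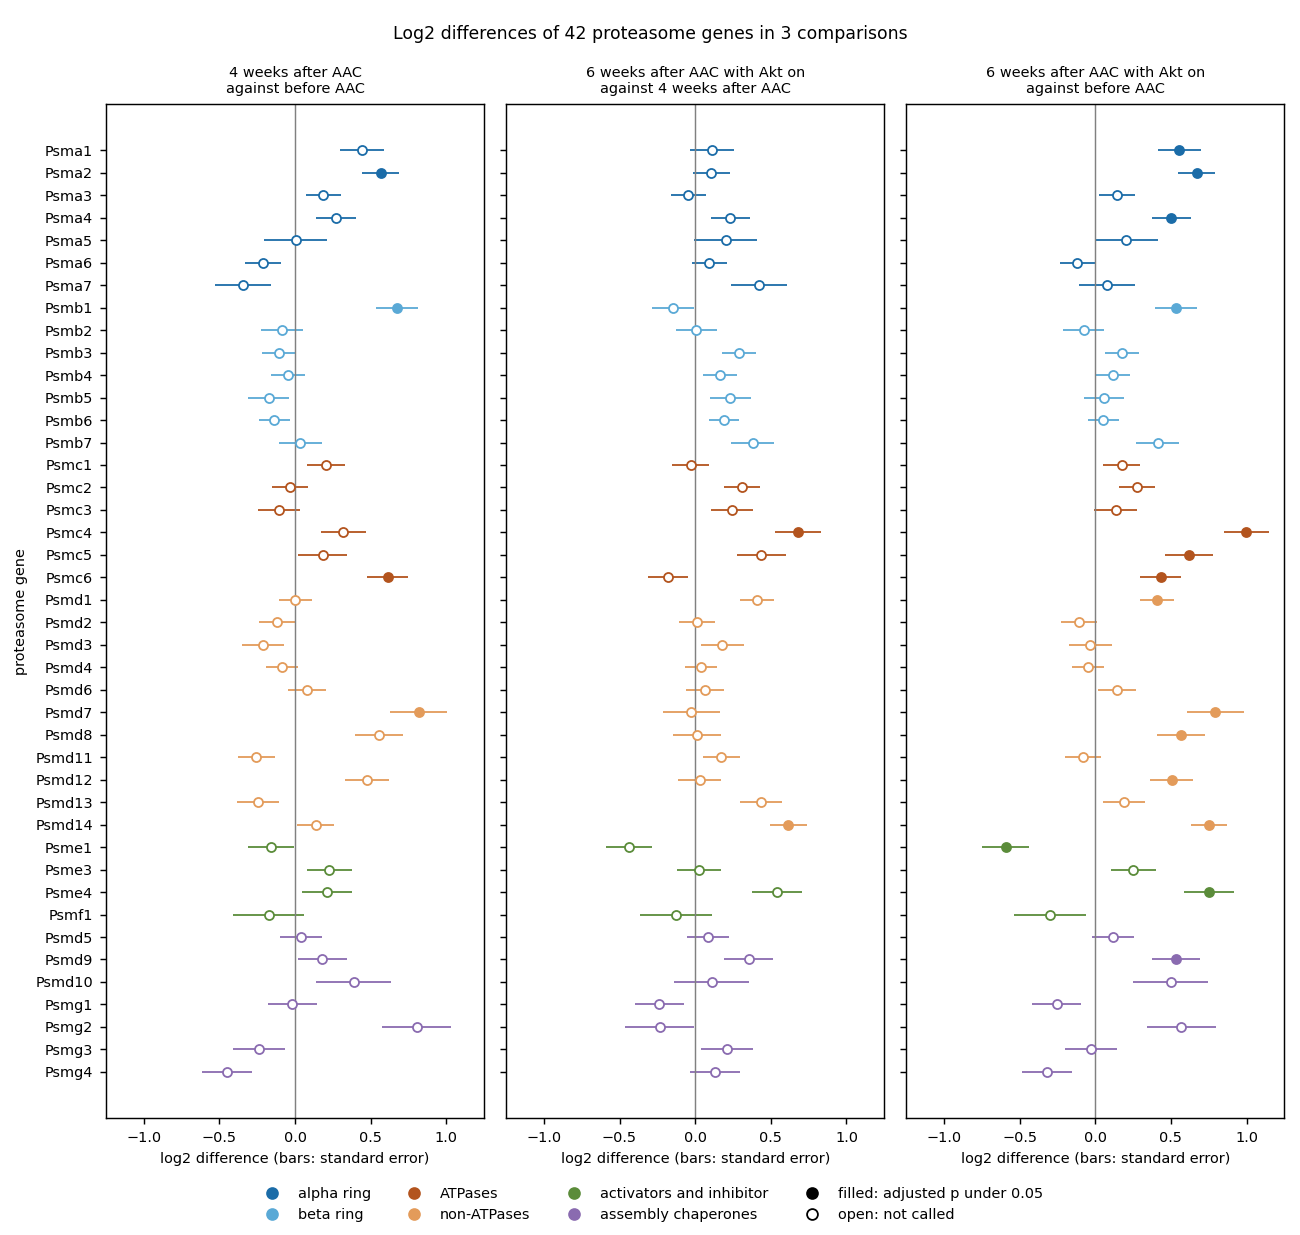
Log2 difference with its standard error for each of the 42 proteasome genes in the 3 comparisons, coloured by subcomplex and filled where the adjusted p was under 0.05. The right panel holds 15 filled points, of which only Psme1 lies below 0, while the left panel holds 4 and the middle panel 2.

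In the earlier step, 4-week hearts against hearts before AAC, 4 of 42 proteasome genes were higher and none was lower, beside 2.42% and 2.15% of all genes. These were the alpha subunit Psma2, the beta subunit Psmb1, the ATPase Psmc6 and the lid subunit Psmd7. At an unadjusted p under 0.05, limma gave 8 genes higher and 1 lower, 9 of 42 against 22.8% of all genes. The median over core particle genes was -0.02 and over regulatory particle genes 0.08, against -0.04 over all genes. With the 430A probe sets of a gene averaged, the core particle median was 0.15 and the regulatory particle median 0.16, and with those of both chips they were 0.11 and 0.14. All 4 calls were lost without any 1 of the hearts before AAC, or without 4-week replicate 1 or 2. The count was 2 without 4-week replicate 3 and 7 without Akt-on replicate 1. The whole table thinned out too, with 310 genes higher in all hearts and 1 to 24 when a heart before AAC or 4-week replicate 1 or 2 was left out.

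Between Akt-on and 4-week hearts, 2 of 42 were higher, Psmc4 and Psmd14, and none was lower, beside 1.77% and 2.33% of all genes. At an unadjusted p under 0.05, limma gave 11 genes higher and 1 lower, 12 of 42 against 19.9% of all genes. The median was 0.18 over the core particle and 0.17 over the regulatory particle, against 0.03 over all genes, and 33 of the 42 differences were above 0, against 54.1% of all genes. The count fell to 0 without 4-week replicate 2 or Akt-on replicate 2, and to 1 without 4-week replicate 1 or 3 or Akt-on replicate 3. It was also 0 when only these 2 groups were fitted. Psmc4 lost its call with its 2 probe sets averaged, at 0.49 (limma adjusted p = 0.171 over both chips).

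In the alpha ring, 3 of 7 genes were higher in Akt-on hearts than before AAC, beside 7.09% of all genes. Psma2 had signals of 2809, 2220.1 and 2579 in hearts before AAC, 3809, 3949 and 3504 in 4-week hearts and 3787, 4320.5 and 4019 in Akt-on hearts. Every heart after AAC was above every heart before it, while the later groups overlapped. The difference was 0.56 ± 0.12 for 4-week hearts against hearts before AAC (SE, n = 3 hearts a group; limma adjusted p = 0.0295) and 0.67 ± 0.12 for Akt-on hearts against hearts before AAC (limma adjusted p = 0.00495). Psma4 had 1949, 2036 and 1933 before AAC, 2049, 2602 and 2551 at 4 weeks and 2648, 3151 and 2651 with Akt on, and the groups stepped up without overlap. Its difference between Akt-on hearts and hearts before AAC was 0.50 ± 0.13 (limma adjusted p = 0.0241). Psma1 had 1156, 1102 and 1085 before AAC, 1333, 1654 and 1614 at 4 weeks and 1377, 1746 and 1878 with Akt on. Again all hearts after AAC were above those before, and the Akt-on difference was 0.56 ± 0.14 (limma adjusted p = 0.0248). The other alpha subunits, Psma3, Psma5, Psma6 and Psma7, were not called and lay between -0.12 and 0.20 for Akt-on hearts against hearts before AAC. For 4-week hearts against hearts before AAC, the probe set used for Psma7 gave -0.34 and was not called. Its other probe set gave 0.59 and was called (limma adjusted p over probe sets = 0.0206).

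In the beta ring, Psmb1, a structural subunit, was the 1 call among 7. Its signals were 1627, 1788 and 2108 before AAC, 2917, 2995 and 2926 at 4 weeks and 2389, 3148 and 2505 with Akt on. The 4-week hearts lay close together and far above the hearts before AAC, by 0.68 ± 0.14 (limma adjusted p = 0.0267). Its other probe set, with a mean signal of 241 against 2489 for the one used, gave -0.34. With both averaged the call was lost, at 0.17 (limma adjusted p = 0.477). For Akt-on hearts against hearts before AAC, where 7.09% of all genes were called higher, the difference was 0.53 ± 0.14 (limma adjusted p = 0.025). Psmb2, Psmb3 and Psmb4, the other structural subunits, gave -0.08, 0.18 and 0.12 there and were not called.

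With all hearts and the settings used throughout, none of the 3 catalytic subunits was called in any comparison. Psmb5, the chymotrypsin-like site, had 5318, 4354 and 4502 before AAC, 3966, 4706 and 3879 at 4 weeks and 4211, 5151 and 5422 with Akt on. The groups overlapped throughout, and Akt-on hearts differed from hearts before AAC by 0.06 ± 0.14 (limma adjusted p = 0.819). The same probe set on chip 430B gave 0.39 ± 0.13 (limma adjusted p over probe sets = 0.0712), also not called. Psmb6, the caspase-like site, had 3628, 3848 and 3778 before AAC, 3333, 3524 and 3367 at 4 weeks and 3743, 3842 and 4097 with Akt on. The 4-week hearts were lowest without overlap, with a difference of -0.14 ± 0.10 against hearts before AAC (limma adjusted p = 0.453), and Akt-on hearts overlapped the hearts before AAC. Psmb7, the trypsin-like site, had 9569, 7759 and 7940.4 before AAC, 8330.2, 9686 and 7829 at 4 weeks and 9161, 12179 and 12504 with Akt on. Akt-on replicates 2 and 3 were above every other heart, while replicate 1 was not, and the difference from hearts before AAC was 0.41 ± 0.14 (limma adjusted p = 0.0726). It was called without Akt-on replicate 1, at 0.56 (limma adjusted p = 0.0156), and after quantile normalization, at 0.58 (limma adjusted p = 0.0154).

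**Figure D2:**
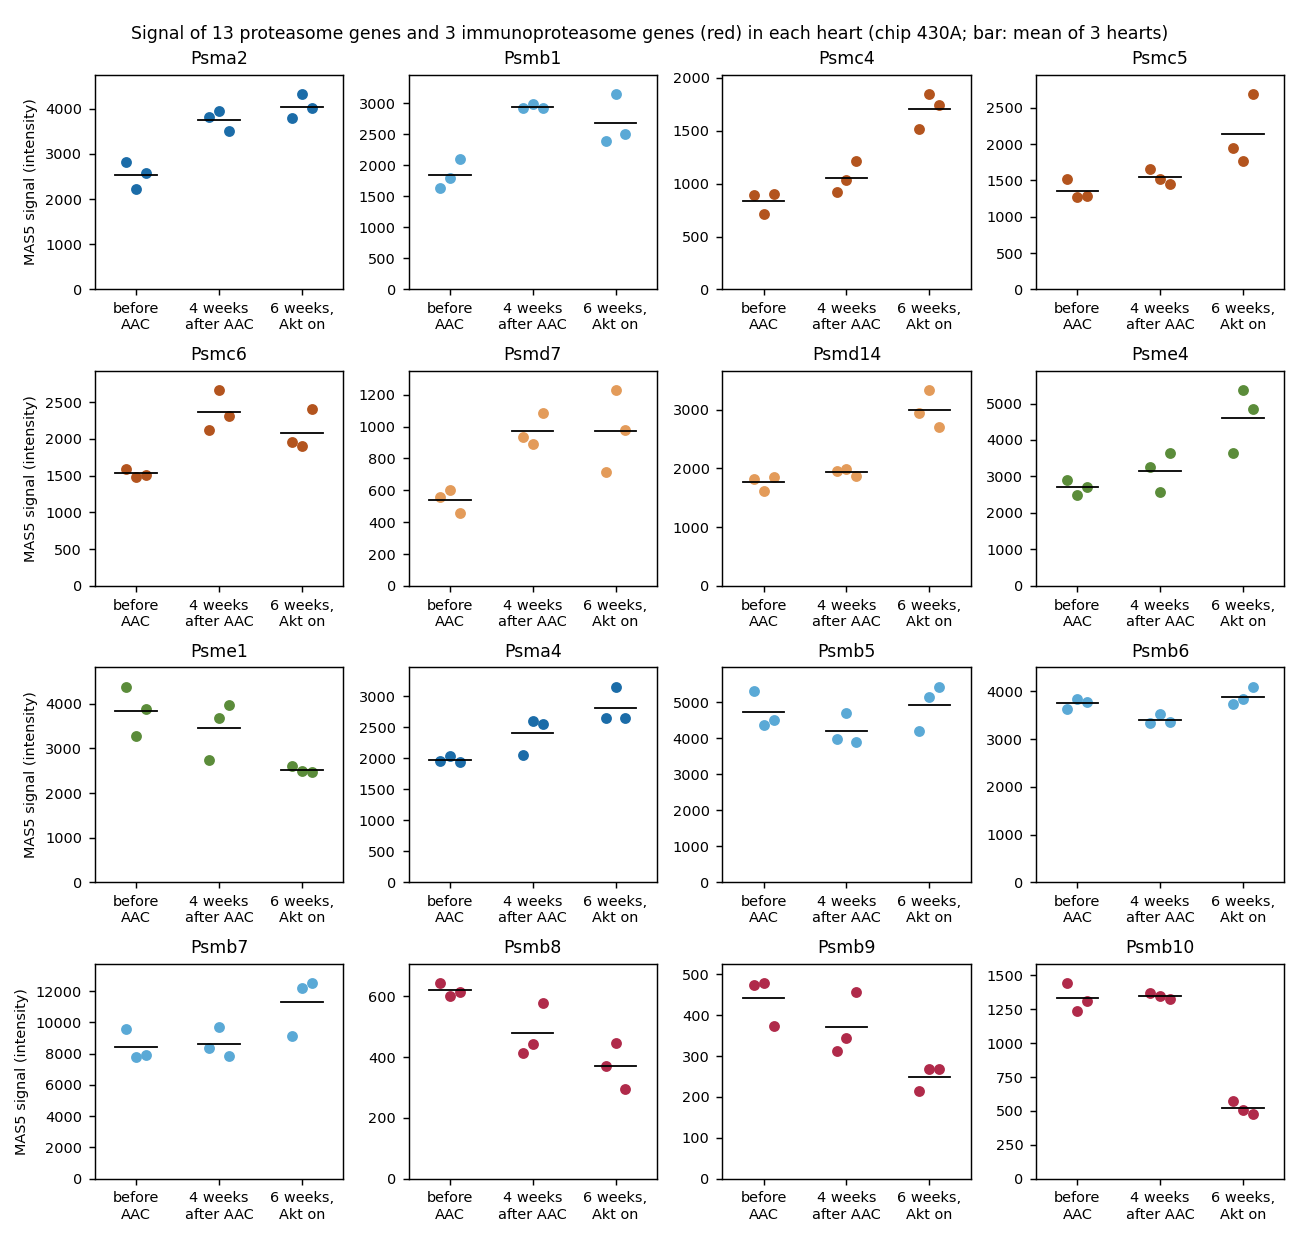
Signal (linear intensity from 0) of each heart for 13 proteasome genes and, in red, the immunoproteasome genes Psmb8, Psmb9 and Psmb10, with a bar at the mean of 3 hearts. Psmc4 and Psmd14 step up in the Akt-on hearts, Psma2, Psmb1, Psmc6 and Psmd7 are already high at 4 weeks, and Psme1 and Psmb10 are lowest with Akt on.

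Among the ATPases, 3 of 6 were higher in Akt-on hearts than before AAC, beside 7.09% of all genes. All 6 differences were above 0, against 49.7% over all genes. Psmc4 had 895, 715 and 902 before AAC, 918, 1032 and 1210.5 at 4 weeks and 1517, 1845 and 1744 with Akt on. The groups did not overlap at either step, with a difference of 0.68 ± 0.15 for Akt-on against 4-week hearts (limma adjusted p = 0.0292) and 1.00 ± 0.15 for Akt-on hearts against hearts before AAC (limma adjusted p = 0.00195). Psmc5 had 1521, 1278 and 1282 before AAC, 1660.4, 1522 and 1449.8 at 4 weeks and 1951, 1765 and 2689 with Akt on. Akt-on replicate 3 was far above the other 2, and the difference from hearts before AAC was 0.62 ± 0.16 (limma adjusted p = 0.0236). Psmc6 had 1593, 1485 and 1509 before AAC, 2125, 2657 and 2304 at 4 weeks and 1954, 1896 and 2406 with Akt on. It was higher already at 4 weeks, by 0.61 ± 0.13 against hearts before AAC (limma adjusted p = 0.0311), and its Akt-on difference of 0.43 only just passed (limma adjusted p = 0.0495). Psmc1, Psmc2 and Psmc3 were not called, at 0.18, 0.28 and 0.13.

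Of the 11 non-ATPase subunits, 5 were higher in Akt-on hearts than before AAC, beside 7.09% of all genes. Psmd14, the enzyme that cuts ubiquitin off the substrate, had 1823, 1611 and 1849.9 before AAC, 1955, 1991 and 1863 at 4 weeks and 2946, 3326 and 2710.2 with Akt on. The Akt-on hearts stood clear of all others, by 0.62 ± 0.12 against 4-week hearts (limma adjusted p = 0.0186) and 0.75 ± 0.12 against hearts before AAC (limma adjusted p = 0.00276). Psmd7, its partner subunit, had 561, 602 and 455 before AAC, 935, 894 and 1086 at 4 weeks and 718, 1227 and 976 with Akt on. It followed another course, high at 4 weeks by 0.82 ± 0.19 against hearts before AAC (limma adjusted p = 0.035), with Akt-on and 4-week hearts overlapping. Its difference between Akt-on hearts and hearts before AAC was 0.79 ± 0.19 (limma adjusted p = 0.0163). The lid subunits Psmd8 and Psmd12 and the large scaffold Psmd1 were also called, at 0.56, 0.50 and 0.41 for Akt-on hearts against hearts before AAC. Psmd1 was 0.41 higher in Akt-on than in 4-week hearts without passing the test (limma adjusted p = 0.0645). The scaffold Psmd2, the ubiquitin receptor Psmd4 and the lid subunits Psmd3, Psmd6, Psmd11 and Psmd13 were not called, at -0.11 to 0.19.

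Of 4 activator and inhibitor genes, 1 was higher and 1 lower in Akt-on hearts than before AAC, beside 7.09% and 7.6% of all genes. Psme4, a large activator that binds the core particle in place of the regulatory particle, had 2913, 2481 and 2717 before AAC, 3259, 2573 and 3636 at 4 weeks and 3639, 5358 and 4852 with Akt on. All Akt-on hearts were above all others, the lowest of them narrowly, and the difference from hearts before AAC was 0.75 ± 0.17 (limma adjusted p = 0.012). Psme1, a subunit of the activator that interferon gamma induces, had 4379, 3281 and 3883 before AAC, 2748, 3671 and 3974 at 4 weeks and 2597, 2493 and 2478 with Akt on. The Akt-on hearts lay close together below all others, with a difference of -0.59 ± 0.15 against hearts before AAC (limma adjusted p = 0.0234) and -0.44 ± 0.15 against 4-week hearts (limma adjusted p = 0.137). Psme3, a nuclear activator subunit, and the inhibitor Psmf1 were not called.

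Among the assembly chaperones, Psmd9, which helps build the ATPase ring, was called higher in Akt-on hearts than before AAC, by 0.53 ± 0.16 (limma adjusted p = 0.0444). Psmd5 and Psmd10, which act on the same ring, were not called, nor were the core chaperones Psmg1, Psmg2, Psmg3 and Psmg4. Psmg4 gave the largest drop of the 42 genes at 4 weeks, with signals of 807, 766 and 749.7 before AAC, 444, 569 and 684 at 4 weeks and 635, 686 and 529 with Akt on. All hearts after AAC were below those before, but the 4-week difference of -0.45 ± 0.17 did not pass (limma adjusted p = 0.131). Psmg2 lay 0.80 higher in 4-week hearts than before AAC, also without passing (limma adjusted p = 0.064).

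Seen heart by heart, the median deviation of the ATPases from the mean of all hearts was -0.10, -0.28 and -0.22 before AAC, -0.07, -0.08 and 0.02 at 4 weeks and 0.21, 0.08 and 0.32 with Akt on. For the non-ATPases it was -0.10, -0.13 and -0.14 before AAC, -0.01, -0.05 and -0.07 at 4 weeks and 0.10, 0.19 and 0.12 with Akt on. Each Akt-on heart thus lay above every other heart among the ATPases and among the non-ATPases. The rings did not separate in this way with the probe sets used, by small margins in Akt-on replicate 1. In the beta ring that heart, at 0.03, lay below 1 heart before AAC, at 0.04. In the alpha ring, at 0.02, it lay below 4-week replicate 3, at 0.07, and just below 4-week replicate 2. The Psma5 probe set used gave this heart 1363, the lowest signal of the 9 hearts, while another gave it 2513, the highest. With probe sets of both chips averaged, the core particle median for Akt-on hearts against hearts before AAC was 0.24 and the regulatory one 0.18. With those of chip 430A averaged they were 0.29 and 0.37.

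**Figure D3:**
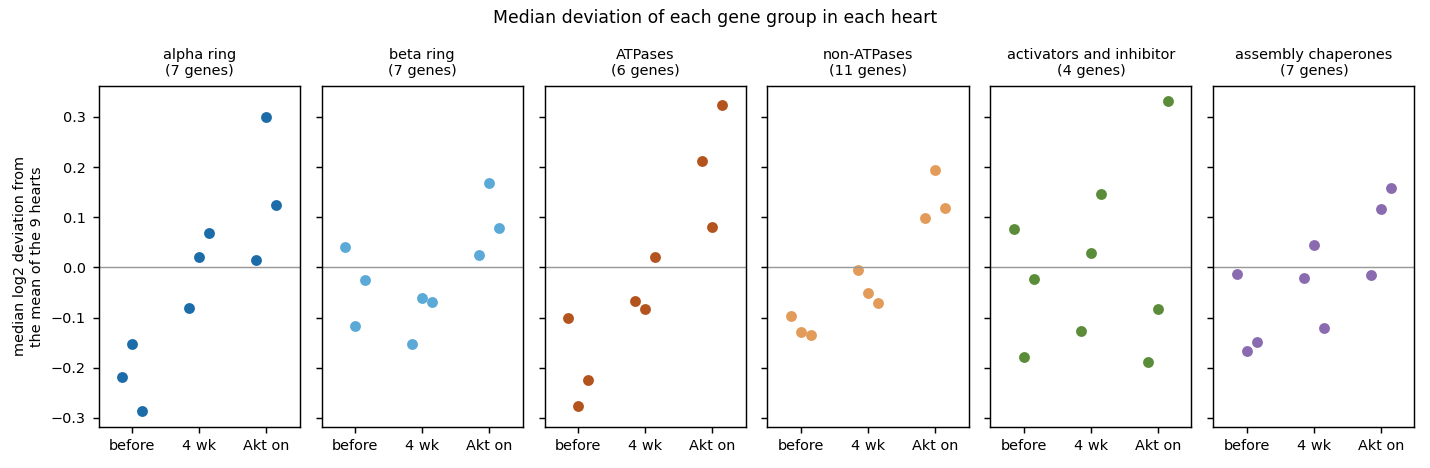
Median log2 deviation of each gene group from the mean of the 9 hearts, 1 point a heart, in time order. With the probe sets used, the ATPases and non-ATPases separate the Akt-on hearts from the rest, while the activators and inhibitor spread widely within each group.

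Several probe sets passed the filter for 22 genes, and the gene values above use the one with the highest mean signal on chip 430A. For Akt-on hearts against hearts before AAC, 23 of the 75 proteasome probe sets were called higher and 1 lower, beside 6.86% and 6.51% of all probe sets. Psme4 was called in 3 of its 5 probe sets and Psmc4 in 2 of 2, while Psmc5 and Psma1 were called on both chips. For Psma5, Psma7, Psmb3, Psmc2 and Psmd11 a probe set not used for the gene was called higher, so the gene count depends on which probe set speaks for the gene. Probe sets of 1 gene pointed both ways in 12 of the 22 genes. Psmd11 ranged from -0.53 to 0.84 and Psmd6 from -0.87 to 0.14. The Psmd6 probe set at -0.87 had a mean signal of 182 and a standard error of 0.75, while the one used had 2737.5 and 0.13. Opposing probe sets of Psma1, Psma3, Psmc2 and Psmd2 also had low mean signals, at 117, 118, 78 and 75. The Psmd11 probe sets at -0.53 and 0.84 were brighter, at 1914 and 581. With the 430A probe sets of a gene averaged, the medians for this comparison were 0.29 over the core particle and 0.37 over the regulatory particle, and Psmb1 was no longer called, at 0.26. With those of both chips averaged, an alternative added after seeing the data, the medians were 0.24 and 0.18 and 13 genes were higher and 1 lower. Psma1 then lost its call, at 0.22 (limma adjusted p = 0.25), as did Psmb1 and Psmc6, and Psme4 kept it at 0.47 (limma adjusted p = 0.0308). At probe set level the 4-week hearts gave 5 higher and 0 lower than before AAC, beside 2.75% and 1.68% of all, and Akt-on against 4-week hearts gave 2 higher and 1 lower, beside 1.08% and 1.46%. The 1 lower was a Psmg2 probe set.

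**Figure D4:**
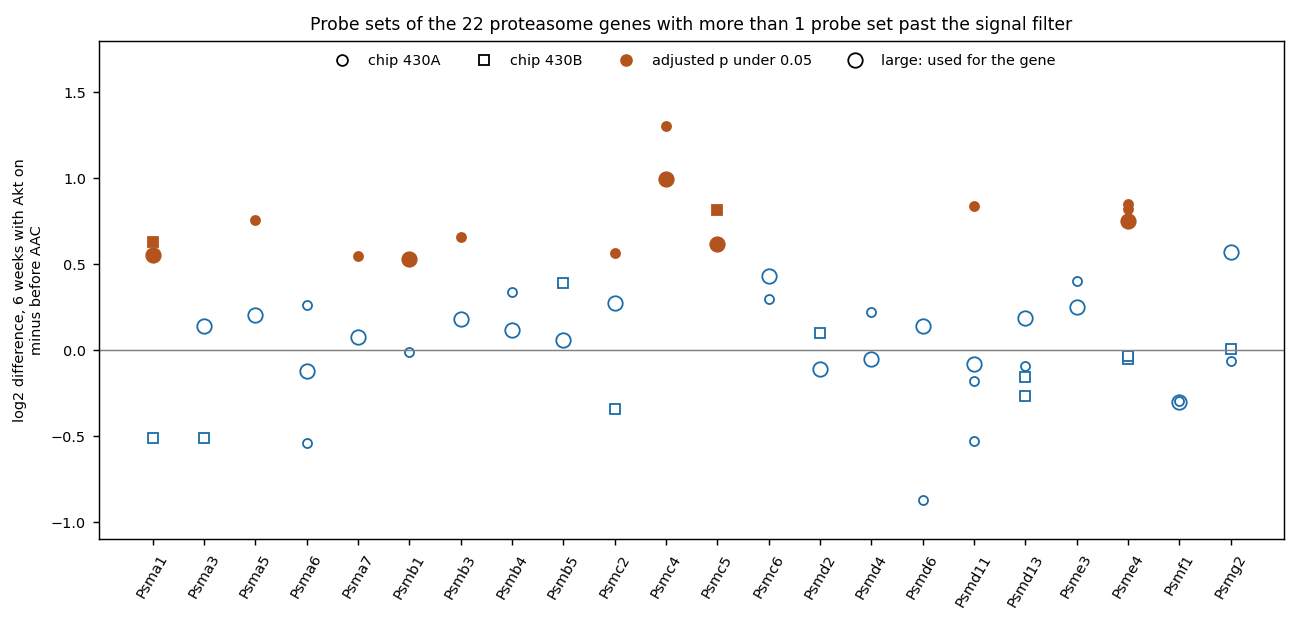
Log2 difference between Akt-on hearts and hearts before AAC for every probe set past the filter of the 22 proteasome genes with more than 1, large symbols being those used for the gene, squares those on chip 430B. The 3 high Psme4 probe sets are all on chip 430A, and its 2 on chip 430B lie near 0.

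Both chips carry a common set of 100 probe sets, and 3 of them are proteasome probe sets, for Psma1, Psmb5 and Psmc5. For Psmb5 the 4-week difference from hearts before AAC was -0.17 on chip 430A and 0.32 on chip 430B, with neither called. Over the 100, the difference on 430B minus that on 430A had a median of 0.21 for 4-week hearts against hearts before AAC, -0.01 for Akt-on against 4-week hearts and 0.19 for Akt-on hearts against hearts before AAC. All 42 gene values come from chip 430A. With arrays scaled on these 100 probe sets, an alternative added after seeing the data, the median of all genes moved to -0.17, 0.03 and -0.13, and 4, 2 and 10 proteasome genes were higher in these comparisons, in that order.

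The count of 14 for Akt-on hearts against hearts before AAC fell to 6, 5 and 5 without replicates 1, 2 and 3 before AAC, and to 7 and 6 without Akt-on replicates 2 and 3. It was 9 without the variance trend. The call on Psme1 was lost without replicates 1 and 3 before AAC or without Akt-on replicate 2 or 3. The calls on Psmc4, Psmd14, Psma2 and Psme4 in this comparison held under all 24 alternatives, with an adjusted p of at most 0.0112, 0.0162, 0.0252 and 0.0495 in limma. Of the 9 fits that each left out 1 heart, 6 kept the call on Psmb1, Psmc5 and Psmd7, 5 that on Psma4 and Psmd1, 4 that on Psma1 and Psmd8, 3 that on Psmd12, 2 that on Psmd9 and 1 that on Psmc6.

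The 3 immunoproteasome genes, which replace the catalytic beta subunits in antigen-presenting and interferon-treated cells, were all lower in Akt-on hearts than before AAC. Over all genes, 7.6% were called lower in this comparison and 2.33% between Akt-on and 4-week hearts. Psmb10 had 1442, 1239 and 1312 before AAC, 1367, 1348 and 1328 at 4 weeks and 574, 509 and 475 with Akt on. It was level until 4 weeks and then well below, with a difference of -1.33 ± 0.13 for Akt-on against 4-week hearts (limma adjusted p = 0.000499) and -1.31 ± 0.13 for Akt-on hearts against hearts before AAC (limma adjusted p = 0.000268). Psmb8 had 643, 601 and 613 before AAC, 414, 442 and 578 at 4 weeks and 369, 447 and 296 with Akt on, and Psmb9 had 474, 478 and 373, 313, 344 and 457 and 214, 268 and 268 in the same order. Both were called lower in Akt-on hearts than before AAC, by 0.71 and 0.75 on the log2 scale (limma adjusted p = 0.0174 and 0.0157). Of the 9 fits that each left out 1 heart, 6 kept the call on Psmb8, 7 that on Psmb9 and 9 both calls on Psmb10. Macrophage markers, of which 9 of 12 were tested and 0 were called in any comparison, summed to 8692 to 12882 in Akt-on hearts, 7658 to 10906 in 4-week hearts and 10682 to 11297 in hearts before AAC. Endothelial markers summed to 6827 to 7127 in Akt-on hearts, 7058 to 9023 in 4-week hearts and 11118 to 11975 in hearts before AAC. Of the 7, 4 were called between Akt-on hearts and hearts before AAC. The count was 2 for 4-week hearts against hearts before AAC and 0 for Akt-on against 4-week hearts. The part of cell make-up in these differences was not tested.

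Of 9 further genes tested as possible proteasome-associated factors, 2 were higher in Akt-on hearts than before AAC. They were Pomp, the chaperone that completes the core particle, by 0.46, and Akirin1 by 0.81. Akirin1 was listed beside its relative Akirin2, and no role of Akirin1 at the proteasome is shown here. In this comparison 7.09% of all genes were called higher and 7.6% lower, and 2.33% were lower against 4-week hearts. Of 7 regulators of proteasome genes, 1 was called. It was Bach1, a repressor at antioxidant response elements, which was lower in Akt-on hearts by 0.71 than at 4 weeks and by 0.77 than before AAC on the log2 scale (limma adjusted p = 0.043 and 0.0137). Nfe2l1 gave -0.37 ± 0.11 for 4-week hearts and -0.24 ± 0.11 for Akt-on hearts, both against hearts before AAC, and was not called. Of 8 ubiquitin supply and shuttle genes, 2 were higher with Akt on than before AAC, Nploc4 by 0.91 and Rad23b by 0.64, and 1 was lower, Ubqln2, by 0.71.

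Of 16 muscle and heart ubiquitin ligases, 3 were higher and 2 lower in Akt-on hearts than before AAC, beside 7.09% and 7.6% of all genes. Klhl41, a muscle substrate adaptor, was 1.40 higher, and it was 1.13 higher at 4 weeks than before AAC (limma adjusted p = 0.0323). Wwp1 was the other of the 2 called at 4 weeks, by 0.55, beside 2.42% of all genes called higher. In that comparison the count over all genes fell from 310 to between 1 and 24 without a heart before AAC or 4-week replicate 1 or 2. Fbxo32, the atrophy ligase atrogin, was 1.04 lower on the log2 scale in Akt-on than in 4-week hearts (limma adjusted p = 0.0324) and 1.20 lower than before AAC (limma adjusted p = 0.00721). Trim54 was 0.56 lower in Akt-on than in 4-week hearts, and Stub1, a ligase that works with chaperones, was 0.67 lower in Akt-on hearts than before AAC. Trim63, a ligase of sarcomere proteins, was not called, at -0.01 for Akt-on hearts against hearts before AAC.

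The promoter table held 36 of the 44 proteasome genes, in a window from 250 bases before the start to 50 after it. The element core printed above was in 6 of them, 16.7%, against 14.0% of the 27025 genes with a promoter there. It was in 4 of the 12 members with a promoter that were higher in Akt-on hearts than before AAC (Psmc6, Psmd9, Psmd12 and Psme4) and in 2 of 23 other tested members, the catalytic Psmb5 and Psmb6. This split rests on weak calls. Of the 9 fits that each left out 1 heart, 1 kept the call on Psmc6, 2 that on Psmd9, 3 that on Psmd12 and 9 that on Psme4. The letters CCAAT, searched on both strands, were in 13 of 36, 36.1%, against 41.1% of all. They were in 3 of the 12 higher members and 9 of the 23 other tested members, and no member held both motifs. These matches are descriptions of sequence in this window, not evidence of binding.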

How the data were processed

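RNA of 9 hearts was measured on Affymetrix chips 430A and 430B, 18 arrays. The authors deposited linear signal intensities made with MAS5, per the submitters' processing notes; its version is not given in the sources used here. Each array was scaled to the mean over its chip of the trimmed mean (2% off each end), then log2 was taken here of these deposited values after adding the pseudocount 32. Probe sets were named from the platform annotation (35041 with 1 symbol, 936 with several, 9160 with none, 128 controls), and the 60% with the highest mean signal on each chip were kept. R 4.3.3 and limma 3.58.1 fitted the 3 groups together, with a variance trend over all probe sets kept. A gene was represented by its 430A probe set of highest mean signal, or by one on 430B where none on 430A passed, and p-values were adjusted by Benjamini and Hochberg over 12835 genes; the fit was tested on simulated data. The number of arrays limits the precision.

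The members and lists were chosen with earlier results of these data known. Signals of every heart are given for called members (up to 10 a comparison, smallest p first), the catalytic subunits and the largest rise and fall of each comparison; in other lists up to 3 called genes with the smallest p are named, and Psmb8, Psmb9 and Psmb10 always. Nfe2l1, Trim63 and Psmg2 were added after their values were seen. Replicates with the same number did not deviate together (r between -0.24 and 0.14), so they were not paired. Alternatives changed the normalization, pseudocount, filter, probe set rule, variance model, groups fitted, chip scale, replicate block, an atrial marker covariate, the 4-week heart whose number is in doubt, and each heart in turn.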

Additional observations from a re-analysis of the deposited data

How the results depend on the processing

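In all, 24 alternatives were run for the proteasome counts, the particle medians, the proteasome genes followed here and the calls on Psmb8, Psmb9 and Psmb10. None is reported for the associated factors, the regulators, the ubiquitin genes or the ligases. For 4-week hearts against hearts before AAC, the count of proteasome genes higher was 1 with no variance trend, 7 with only the 2 groups fitted, 0 with 4-week replicates 1 and 3 averaged and 0 to 7 with 1 heart left out. The regulatory particle median was 0.020 with the atrial covariate, 0.014 on the scale of the 100 shared probe sets (chosen after seeing the data) and 0.034 to 0.14 with 1 heart left out. For Akt-on against 4-week hearts, the count higher was 1 with the mean of the 430A probe sets, 0 with only the 2 groups and 0 to 3 with 1 heart left out, the count lower was 0 to 1, the core median was 0.10 to 0.23 and the regulatory median 0.11 to 0.20. For Akt-on hearts against hearts before AAC, 9 were higher with no variance trend and 5 to 14 with 1 heart left out, 0 to 1 were lower, and the regulatory median was 0.21 on the shared scale and 0.20 to 0.35 with 1 heart left out. Averaging the 430A probe sets of a gene gave core medians of 0.15 for 4-week hearts against hearts before AAC and 0.29 for Akt-on hearts against hearts before AAC. The regulatory medians were then 0.16 for 4-week hearts against hearts before AAC, 0.085 for Akt-on against 4-week hearts and 0.37 for Akt-on hearts against hearts before AAC. Averaging those of both chips, also chosen after seeing the data, gave core and regulatory medians of 0.11 and 0.14 for 4-week hearts against hearts before AAC and 0.24 and 0.18 for Akt-on hearts against hearts before AAC, and a regulatory median of 0.12 for Akt-on against 4-week hearts. With the replicate number as a block, 1, 2 and 11 proteasome genes were higher in the 3 comparisons and 0, 0 and 1 lower. For Akt-on hearts against hearts before AAC, Psmb5 ranged from -0.015 to 0.17 with 1 heart left out, reversing without Akt-on replicate 3, and was -0.0080 on the shared scale, where Psmb6 reversed to -0.013; neither was called in any of these. Psmb7 gained a call in 2 alternatives, which the text gives. The causes were not tested.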
